A study of Mus musculus with 6 samples.

Results

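Il12b and 9 other cytokine genes of myeloid cells were followed by RNA-seq in tumour-associated dendritic cells sorted from mice with ID8 tumours. The 10 genes were taken by symbol from a table of 23225 genes, and all 10 had a row. They are the subunits of the IL-12 family (Il12b, Il12a, Il23a, Il27 and Ebi3), the inflammatory cytokines Il6, Il1b and Tnf, and the regulatory cytokines Il10 and Tgfb1. The 2 genotypes compared had 3 libraries each. The XBP1-KO mice carried a conditional deletion of XBP1 in CD11c-positive cells, and the WT mice were wild type. All were of the C57BL/6 background, and cells of both genotypes came from ID8-based tumours and ascites at day 23. ID8 cells, a mouse line derived from ovarian surface epithelium, form peritoneal tumours and ascites. XBP1 is a transcription factor of the unfolded protein response. Its deletion depends on CD11c, so that cells without CD11c keep the gene, and the labels do not give the driver, the sort gate or the age of the mice. The column names carry the genotype and no replicate number, and the libraries are called a, b and c within a genotype only as names. The labels say that RNA was isolated independently for each sample but not whether each sample was its own animal. The p-values therefore measure only how these samples spread, which may be technical.

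Cytokines of the IL-12 family are pairs of 2 chains. IL-12 joins the p40 chain, made from Il12b, to p35, made from Il12a, and IL-23 joins the same p40 to p19, made from Il23a. IL-27 joins EBI3 to p28, the product of Il27. Dendritic cells and macrophages make p40 after stimulation of Toll-like receptors and CD40, IL-12 drives interferon gamma in NK and T cells, and IL-23 sustains IL-17-producing T cells. Tnf, Il1b and Il6 are early inflammatory cytokines of the same cells, while IL-10 and TGF-beta 1 restrain inflammation.

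Libraries held between 26946349 and 32709100 counts. Levels are given as CPM, counts scaled to a common library total, after TMM normalisation, and errors are SDs over 3 libraries. Xbp1, the targeted gene, had 34.6 ± 5.07 CPM in XBP1-KO and 64.2 ± 14.3 CPM in WT, with no overlap. Its log2 fold change of -0.89 (SE 0.18) had an adjusted p of 0.0545 by the edgeR quasi-likelihood test, above the threshold of 0.05, and 5 of 17 alternatives called it. Transcripts that lack the deleted exons are not separated in these counts. On the first principal component, with 33.5% of the variance, WT b lay at 9.6, nearer to the XBP1-KO libraries than to the other WT libraries. The XBP1-KO libraries lay between 15.8 and 37.5, WT a at -32.8 and WT c at -59.5. Libraries XBP1-KO b and WT b stood apart from the other 4 on the second principal component, with 22.2% of the variance, at 30.1 and 38.3 where the others lay between -45 and -1. Itgax, which encodes CD11c, had 133 to 161 CPM in XBP1-KO and 94.3 to 109 CPM in WT, and the dendritic cell factor Zbtb46 had 6.88 to 8.16 CPM in XBP1-KO and 8.51 to 8.92 CPM in WT. They belong to a list of 7 general dendritic cell genes, of which 2 lay higher in XBP1-KO and 5 lower. The median log2 fold change of the list was -0.23, where that of all tested genes was 0.06. None of the 7 passed the edgeR quasi-likelihood test (lowest adjusted p = 0.106). Markers of conventional dendritic cells were present in every library, with summed levels of 2392 to 3462 CPM in XBP1-KO and 3237 to 4269 CPM in WT for 7 markers of type 2 cells, and of 172 to 430 CPM in XBP1-KO and 302 to 733 CPM in WT for 6 markers of type 1 cells. Markers of other cells were also present. The sum over 10 macrophage markers was 4509 to 5281 CPM in XBP1-KO and 3979 to 4912 CPM in WT. Most of it came from C1qb, at 2913 to 3663 CPM in XBP1-KO and 2250 to 3321 CPM in WT. Of these 10 markers 7 lay higher in XBP1-KO and 3 lower, with a median log2 fold change of 0.36, and none passed. The sum over 9 markers of T and NK cells was 167 to 288 CPM in XBP1-KO and 100 to 131 CPM in WT.

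Il12b was the 1 cytokine gene of the 10 that changed. It fell 3.2-fold, to a mean of 8.26 ± 2.78 CPM in XBP1-KO against 26.5 ± 7.85 CPM in WT (SD, n = 3 each). In XBP1-KO a, b and c there were 138, 290 and 328 counts of Il12b, or 5.05, 9.78 and 9.95 CPM. In WT a, b and c there were 538, 979 and 772 counts, or 19, 34.6 and 25.8 CPM. The genotypes did not overlap, with XBP1-KO a lowest and WT b highest of the 6. On the log2 scale the difference was -1.68 (SE 0.29). Over 15958 genes the edgeR quasi-likelihood test gave it an adjusted p of 0.044. In that test 0.288% of all tested genes were called lower in XBP1-KO, and 0.445% in either direction. The call depended on single libraries. By the same edgeR test it was made without WT a (adjusted p = 0.0305) and without XBP1-KO b (0.0389), and was lost when the library left out was XBP1-KO a (0.0631), XBP1-KO c (0.0927), WT b (0.101) or WT c (0.18), while the log2 fold change stayed between -1.87 and -1.43. Without libraries WT b and XBP1-KO b together it was -1.59, with an adjusted p of 0.0807. In a bulk sample, fewer cells that express a gene and less RNA of it per cell cannot be told apart.

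**Figure D1:**
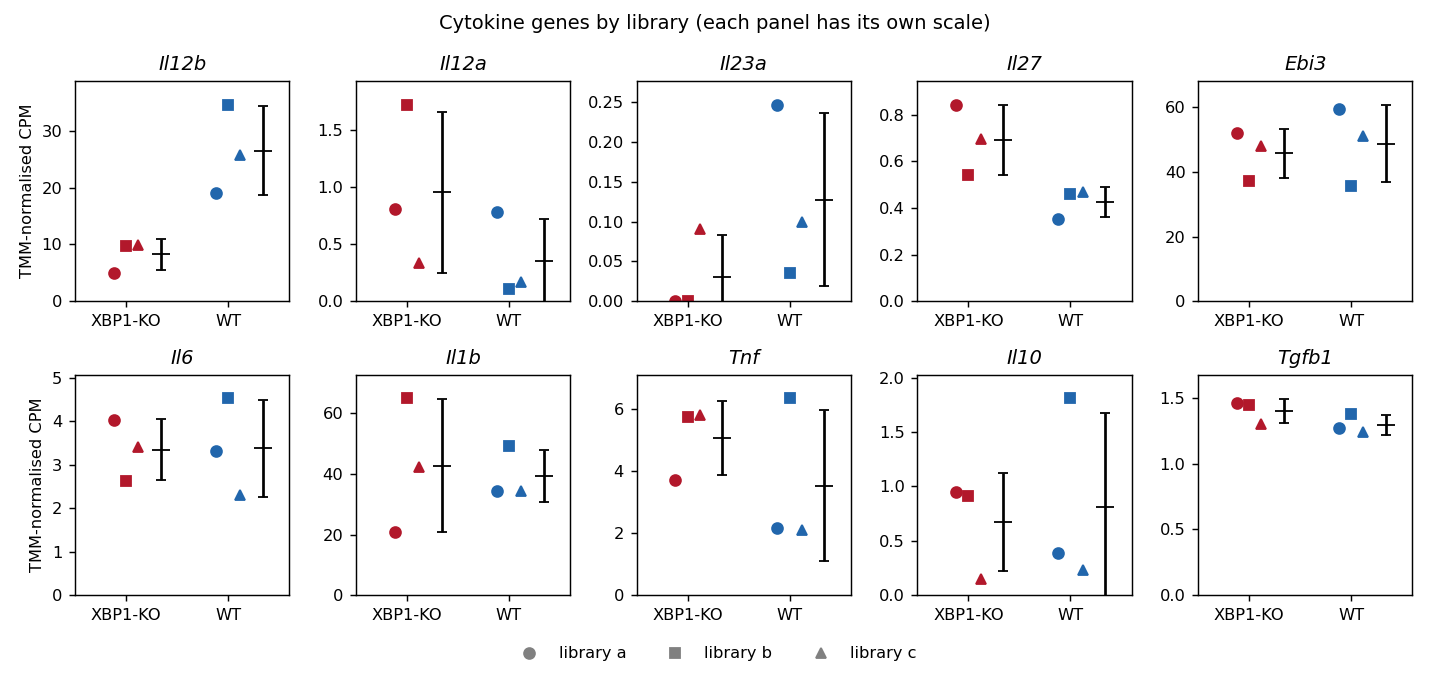
TMM-normalised CPM of each of the 10 cytokine genes (vertical axes, a scale of its own in each panel, from 0) in the 3 XBP1-KO libraries (red) and the 3 WT libraries (blue), with the mean and SD of each genotype in black, the bars ending at 0 where they would go below it. Il12b lies between 5.05 and 9.95 CPM in XBP1-KO and between 19 and 34.6 CPM in WT, and apart from Il12b and Il27 the genotypes overlap in every panel.

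The promoter of Il12b is shown because the deleted gene encodes a transcription factor, and those of Ebi3, Il6 and Il1b because they differ from it in the motifs found. Of the 10 genes, 7 matched a promoter in the RefSeq table of assembly GRCm38.p6, with 8 promoters in all. Each sequence is the 250 bases before the annotated start, 5′ to 3′ on the gene's strand. Those shown lie at chr11:44399813-44400062 (plus strand, Il12b), chr17:55952373-55952622 (plus strand, Ebi3), chr5:30012864-30013113 (plus strand, Il6) and chr2:129371140-129371389 (minus strand, Il1b). Capitals mark matches on either strand to 1 of 5 motifs: ACGT, the core of XBP1 and CREB binding sites, CCACG, the part of the ER stress element that XBP1 binds, the NF-kB motif of GGG and CC with any 5 bases between, TGANTCA of AP-1 sites, and the TATA box as TATANA.
Il12b: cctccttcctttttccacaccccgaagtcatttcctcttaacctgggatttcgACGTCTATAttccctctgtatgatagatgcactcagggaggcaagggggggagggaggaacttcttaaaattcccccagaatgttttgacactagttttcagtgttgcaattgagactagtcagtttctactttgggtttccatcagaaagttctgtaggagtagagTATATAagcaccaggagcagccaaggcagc
Ebi3: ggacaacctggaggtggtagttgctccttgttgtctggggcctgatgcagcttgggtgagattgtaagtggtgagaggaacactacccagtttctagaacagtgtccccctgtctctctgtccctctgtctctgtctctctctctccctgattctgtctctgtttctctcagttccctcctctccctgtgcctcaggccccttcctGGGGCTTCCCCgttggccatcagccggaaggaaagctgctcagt
Il6: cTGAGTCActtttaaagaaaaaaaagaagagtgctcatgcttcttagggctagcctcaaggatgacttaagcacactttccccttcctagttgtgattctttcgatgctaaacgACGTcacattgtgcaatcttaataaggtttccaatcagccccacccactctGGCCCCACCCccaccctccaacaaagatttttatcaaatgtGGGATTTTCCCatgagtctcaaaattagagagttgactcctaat
Il1b: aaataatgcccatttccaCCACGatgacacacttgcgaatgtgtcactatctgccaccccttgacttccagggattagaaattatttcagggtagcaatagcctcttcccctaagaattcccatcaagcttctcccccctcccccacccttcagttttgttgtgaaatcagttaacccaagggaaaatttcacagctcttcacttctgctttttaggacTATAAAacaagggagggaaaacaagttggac
The Il12b window held ACGT at positions -197 to -194, counted back from -1 at the base before the start, and TATATA at -30 to -25. The ACGT match shares its last base with a TATANA match that ends at -189. Il6 held ACGT at -136 to -133. Among the 7 genes 2, Il12b and Il6, held ACGT, which 26.9% of 32851 promoters of the same length held, and 2, Il1b and Tgfb1, held CCACG, which 28.3% of all promoters held. The NF-kB motif was found for 5 of the 7 genes and in 45.8% of all promoters. It was found in the windows of Ebi3 and Il6, while that of Il12b held no match to this strict pattern. A site that departs from the pattern is not counted, so the search does not show that the Il12b window lacks NF-kB sites. TATANA was found for 3 of the 7 genes and in 22.6% of all promoters, and TGANTCA for Il6 alone and in 6.75% of all promoters. Whether XBP1 binds at any of these matches was not tested.

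The partner chains of p40 were sparse in both genotypes. Il12a, which encodes p35, had 22, 51 and 11 counts in XBP1-KO libraries a, b and c, or 0.805, 1.72 and 0.334 CPM. It had 22, 3 and 5 counts in WT libraries a, b and c, or 0.777, 0.106 and 0.167 CPM. WT a lay within the range of XBP1-KO, so the genotypes overlapped, and the log2 fold change of 1.43 had an SE of 0.82 (edgeR adjusted p = 0.496). It was 0.67 without XBP1-KO b and 2.75 without WT a, and 0.25 without both b libraries. Il23a, which encodes p19, had 0, 0 and 3 counts in XBP1-KO and 7, 1 and 3 counts in WT. It was too low to be tested, and the limit that a count of 0 allows is 0.11 CPM in XBP1-KO a and 0.101 CPM in XBP1-KO b, counting error only. Per kilobase of transcript, which allows genes to be compared, p40 stood at 2.6, 5.03 and 5.12 CPM in XBP1-KO a, b and c, where p35 and p19 together stood at 0.618, 1.32 and 0.323. In WT a, b and c p40 stood at 9.77, 17.8 and 13.3 CPM per kilobase, and p35 and p19 together at 0.778, 0.108 and 0.202. The transcript of the shared chain was thus above that of its 2 partners in each of the 6 libraries, and the widest gap was in WT b, where p40 was highest and the partners lowest.

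The chains of IL-27 did not pass the test. Ebi3, a soluble receptor-like chain that also pairs with p35 in IL-35, had 52.0, 37.1 and 47.8 CPM in XBP1-KO a, b and c and 59.3, 35.7 and 51.0 CPM in WT a, b and c. Both genotypes were lowest in library b, and the log2 fold change was -0.09 (SE 0.19; edgeR adjusted p = 0.873). Il27, which encodes p28, had 23, 16 and 23 counts in XBP1-KO and 10, 13 and 14 counts in WT. Each XBP1-KO value (0.54 to 0.842 CPM) lay above each WT value (0.353 to 0.468 CPM), yet the log2 fold change of 0.69 had an SE of 0.59 and an adjusted p of 0.653 in the same test. Il12b and Il27 were the 2 genes of the 10 whose genotypes did not overlap, a property of 19.2% of all tested genes. At GRCm38, Il27 shares exon sequence with Apobr and Ebi3 with the antisense gene Gm16712, and without a stated strand setting reads of such pairs cannot be told apart.

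The 3 inflammatory cytokines did not pass the test. Il1b had 20.9, 64.9 and 42.3 CPM in XBP1-KO a, b and c and 34.5, 49.3 and 34.4 CPM in WT a, b and c. XBP1-KO held both the lowest and the highest value, and the log2 fold change was 0.12 (SE 0.39). Tnf had 3.7, 5.73 and 5.8 CPM in XBP1-KO and 2.15, 6.34 and 2.1 CPM in WT. Its WT value in library b was above every XBP1-KO value, while the other WT values were below them. The log2 fold change of Tnf was 0.53 (SE 0.42), and without WT b it was 1.23. Il6 had 4.03, 2.63 and 3.4 CPM in XBP1-KO and 3.32, 4.53 and 2.3 CPM in WT, with a log2 fold change of -0.01 (SE 0.33). Their adjusted p-values in edgeR's quasi-likelihood test were 0.925, 0.633 and 0.987 for Il1b, Tnf and Il6.

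The regulatory cytokines were low. Il10 had 0.952, 0.911 and 0.152 CPM in XBP1-KO a, b and c and 0.388, 1.81 and 0.234 CPM in WT a, b and c, from 5 to 51 counts. The genotypes overlapped, with WT b highest and XBP1-KO c lowest. The log2 fold change was -0.27 (SE 0.84), and the edgeR quasi-likelihood test gave an adjusted p of 0.915. Tgfb1 had 1.46, 1.45 and 1.3 CPM in XBP1-KO and 1.27, 1.38 and 1.24 CPM in WT, from 36 to 43 counts in a library, with a log2 fold change of 0.12 (SE 0.4) and an adjusted p of 0.925. The 6 values of Tgfb1 spread less than those of any other of the 10 genes, with a chi-square against equal shares of 1 on 5 degrees of freedom, which is within counting error. The same chi-square was 1060 for Il12b and 78.7 for Il10. It grows with the number of counts, so that it does not rank genes by relative spread. Over the 9 tested genes, 5 lay higher, 4 lay lower and 1 passed, and the adjusted p of the other 8 ran from 0.496 to 0.987. Their median log2 fold change was 0.12, where that of all tested genes was 0.06.

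Per kilobase of the longest coding transcript, Ebi3 was the highest of the 10 genes by mean in both genotypes. In XBP1-KO the means were 39.6 ± 6.69 CPM per kilobase for Ebi3, 31.5 ± 16.2 for Il1b, 4.25 ± 1.43 for Il12b, 3.1 ± 0.729 for Tnf and 1.43 ± 0.298 for Il6 (SD, n = 3). In WT they were 42.2 ± 10.4 CPM per kilobase for Ebi3, 29.0 ± 6.31 for Il1b, 13.6 ± 4.04 for Il12b, 2.15 ± 1.48 for Tnf and 1.44 ± 0.476 for Il6 (SD, n = 3). Il10, Tgfb1, Il27, Il12a and Il23a had means below 1 CPM per kilobase in both genotypes. In XBP1-KO the lowest Il12b value, 2.6 CPM per kilobase, lay within the Tnf values of 2.26 to 3.54. Within each XBP1-KO library Il12b was still above Tnf, at 2.6 against 2.26 in a, 5.03 against 3.5 in b and 5.12 against 3.54 in c. In WT the ranges of the 2 genes did not overlap, with 9.77 to 17.8 for Il12b against 1.28 to 3.87 CPM per kilobase for Tnf. Il12b lay below Il1b in all libraries of both genotypes. Ebi3 and Il1b overlapped in both genotypes, as did Tnf and Il6 in WT. Of the lower genes in the order of WT means, neighbours overlapped in WT except Tgfb1, whose values all lay above those of Il27 there but not in XBP1-KO. The place of Il6 depends on its transcript, since with its shortest one its mean was 5.15 in XBP1-KO and 5.2 CPM per kilobase in WT. The median level was 0.196 CPM per kilobase over 751 genes with more than 60% GC and 1.97 over 4216 genes with 45% to 50%. Tgfb1 has 62.5% GC in its transcript, the highest of the 10, and the part of GC content in its level was not tested.

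**Figure D2:**
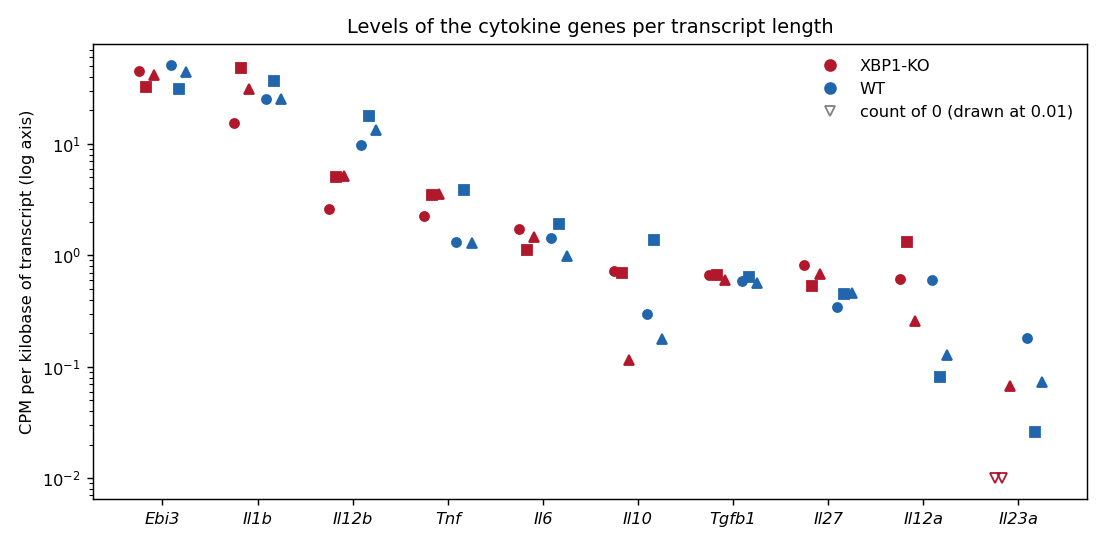
CPM per kilobase of the longest coding transcript (vertical log axis) of the 10 cytokine genes, ordered by their WT mean, for the 3 XBP1-KO libraries (red) and the 3 WT libraries (blue), with circles, squares and triangles for libraries a, b and c and open triangles at 0.01 for counts of 0. Il12b stands between 9.77 and 17.8 in WT, above every Tnf value. In XBP1-KO it stands between 2.6 and 5.12, where its range overlaps that of Tnf, although Il12b is above Tnf within each library.

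Ratios within a library do not depend on scaling. Il12b counts were 1.37, 1.71 and 1.72 times the Tnf counts in XBP1-KO a, b and c, and 8.82, 5.47 and 12.3 times in WT a, b and c. The mean log2 ratio was 0.67 ± 0.19 in XBP1-KO and 3.07 ± 0.59 in WT (SD, n = 3 each), a difference of -2.4 without overlap, in which the fall of Il12b is included. Ebi3 counts were 61.8, 68.7 and 68.6 times those of Il27 in XBP1-KO and 168, 77.5 and 109 times in WT, with mean log2 ratios of 6.05 ± 0.09 and 6.81 ± 0.56 (SD, n = 3 each) and a difference of -0.76. Both ratios gave a two-sided p of 0.1 in the exact permutation test, also after adjustment over the 2 ratios, which is the smallest value that 3 against 3 allows. Neither passed. The ratios of Il12b to Il12a, Il23a and Il10 were not tested, since these genes had under 10 counts in at least 1 library.

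Il12b was set against markers of dendritic cell subsets, because type 1 conventional cells and mature migratory cells are known sources of p40. These ratios were chosen after the values were seen. Xcr1, the XCL1 receptor of type 1 cells, had 21.6, 115 and 62.1 CPM in XBP1-KO a, b and c and 69.4, 171 and 66.8 CPM in WT a, b and c. The 6 matched type 1 markers summed to 172, 430 and 297 CPM in XBP1-KO a, b and c and to 302, 733 and 310 CPM in WT a, b and c, so that the genotypes overlapped, while XBP1-KO a was lowest and WT b highest for these markers as for Il12b. None of the 6 passed edgeR's quasi-likelihood test (lowest adjusted p = 0.453). Per 100 CPM of these markers Il12b stood at 2.94, 2.27 and 3.35 CPM in XBP1-KO a, b and c, against 6.29, 4.73 and 8.32 CPM in WT a, b and c. The mean log2 difference was -1.15 and the genotypes did not overlap, where the log2 fold change of Il12b itself was -1.68. Against single markers the genotypes overlapped for 3 of the 6, which were Xcr1, Itgae and Tlr3. The 10 matched markers of mature migratory cells, among them the lymph node homing receptor Ccr7, summed to 1421 to 2371 CPM in XBP1-KO and 1545 to 1934 CPM in WT. Per 100 CPM of these Il12b stood at 0.213 to 0.689 CPM in XBP1-KO and 0.996 to 2.24 CPM in WT, a mean log2 difference of -1.76, and 1 of the 10 single markers, Tnfrsf4, gave an overlap. Ccl5 made up the largest part of that sum, at 706 to 1331 CPM in XBP1-KO and 555 to 990 CPM in WT. A ratio to the list without Ccl5 was not determined. Per 100 CPM of 7 type 2 markers the difference was -1.33, with 0.146 to 0.409 CPM in XBP1-KO and 0.447 to 1.07 CPM in WT, and 3 of the 7 single markers, Irf4, Cd1d1 and Ltb, gave an overlap. Ltb had only 1 to 10 counts in a library and was too low to be tested. Most of the type 2 sum came from Cd209a and Mgl2. Cd209a had 1025 to 1628 CPM in XBP1-KO and 1272 to 1955 CPM in WT. Mgl2 had 904 to 1441 CPM in XBP1-KO and 1389 to 1972 CPM in WT. Per 100 CPM of 5 general dendritic cell genes the difference was -1.52. That sum leaves out Cd74 and H2-Ab1, the most abundant of the list, which macrophages and B cells also make, and with both included the difference was -1.46. All 5 gave an exact permutation p of 0.1, the smallest that the design allows. Each of these ratios includes the fall of Il12b, whose genotypes did not overlap on their own. A ratio without overlap is thus no separate test of that fall. The share of all genes against which Il12b would show no overlap was not determined.

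**Figure D3:**
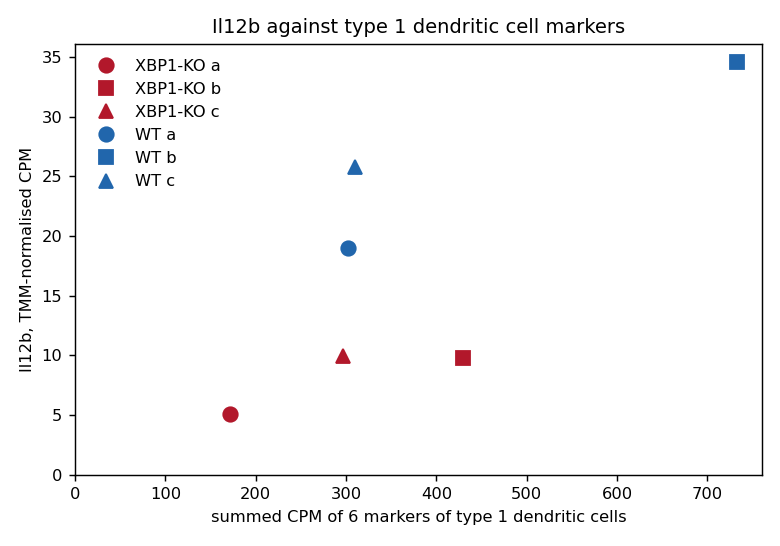
Il12b (vertical axis, TMM-normalised CPM) against the summed CPM of 6 markers of type 1 dendritic cells (horizontal axis) in each of the 6 libraries, XBP1-KO in red and WT in blue. XBP1-KO c and WT a have nearly the same marker sum, 297 and 302 CPM, and Il12b levels of 9.95 and 19 CPM.

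**Figure D4:**
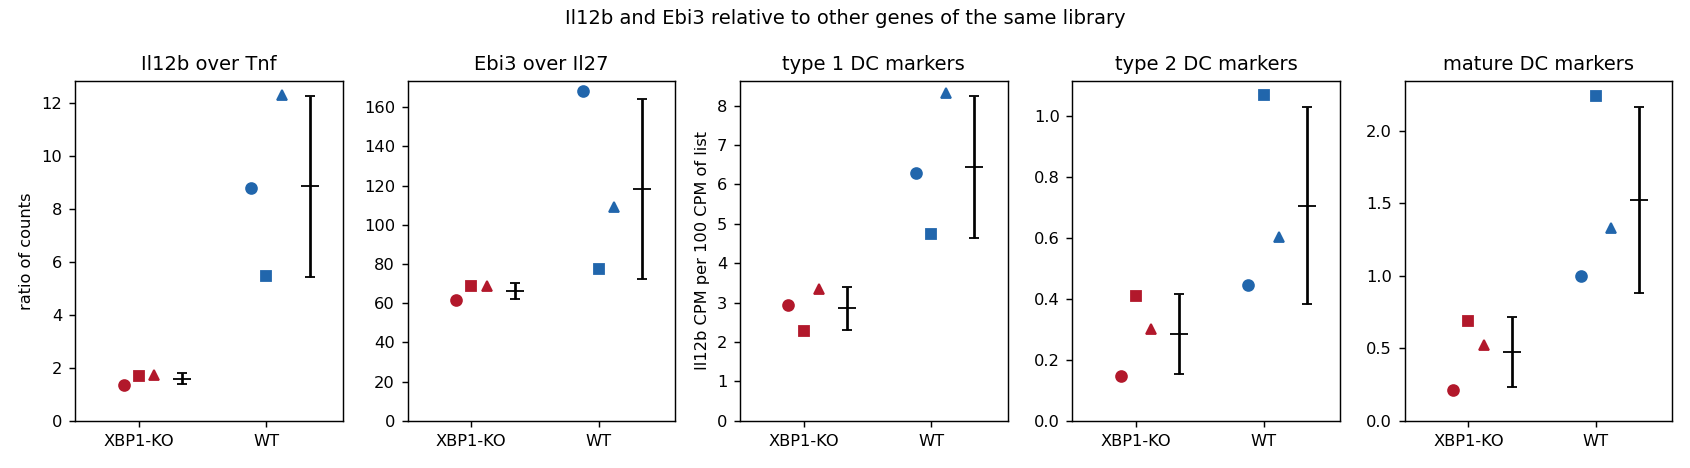
Ratios within each library (vertical axes from 0, a scale of its own in each panel) for XBP1-KO in red and WT in blue, with mean and SD in black and circles, squares and triangles for libraries a, b and c. Panels show Il12b over Tnf counts, Ebi3 over Il27 counts, and Il12b CPM per 100 CPM of markers of type 1, type 2 and mature dendritic cells, and in each panel the XBP1-KO points lie below the WT points.

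The 8 genes whose log2 CPM was most like that of Il12b over the 6 libraries, among 9709 genes with a mean of at least 5 CPM, were Ppapdc1b, Cdv3, Nbas, Copa, Gmppb, Csnk1d, Gripap1 and Ppp1r15b. Their Pearson correlations with Il12b ran from 0.987 to 0.994, and the points share genotype, library and depth. Since they were chosen for their likeness to Il12b, their lower levels in XBP1-KO follow from the choice and were not tested. The 4 most alike are given. Ppapdc1b had 10.2, 12.9 and 12.3 CPM in XBP1-KO a, b and c and 15, 17.9 and 17.1 CPM in WT a, b and c. Cdv3 had 172, 195 and 190 CPM in XBP1-KO and 223, 259 and 235 CPM in WT. Nbas, a protein of Golgi-to-ER transport, had 8.27, 14.0 and 12.8 CPM in XBP1-KO and 19.7, 27.3 and 21.7 CPM in WT. Copa, a subunit of the COPI coat of Golgi vesicles, had 142, 192 and 179 CPM in XBP1-KO and 243, 303 and 294 CPM in WT. The largest separation of the genotype means among these 4 was that of Nbas, at 0.51 of the WT mean, where Il12b stood at 0.312.

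Genes that induce, receive or restrain these cytokines were read from 9 lists with 110 genes, of which 103 were tested. In edgeR's quasi-likelihood test none passed, and 25 had an unadjusted p under 0.05 (13 higher and 12 lower), or 24.3%, where 12.9% of all tested genes did. Limma-voom called none, and DESeq2 called 4 of the 98 it gave an adjusted p, which were Tyk2, Il27ra, Ticam1 and Prf1, where it called 3.6% of all genes to which it gave one. The median log2 fold change was 0.04, with 56 genes higher and 47 lower. Adjusted p-values given for pathway and marker genes are from the edgeR quasi-likelihood test.

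Of the receptors of the IL-12 family 3 of 5 were tested, 2 lay lower and 1 higher. Il27ra, the ligand-binding chain of the IL-27 receptor, was the most abundant and had 38.1, 26.7 and 30.5 CPM in XBP1-KO a, b and c and 60.5, 33.4 and 73.8 CPM in WT a, b and c, with a log2 fold change of -0.82 (SE 0.27) and an adjusted p of 0.228. WT b fell within the range of XBP1-KO. Receptors of the other cytokines were split, with 5 higher and 5 lower of 10. Il10ra, the signalling chain of the IL-10 receptor, had 113, 128 and 120 CPM in XBP1-KO and 160, 158 and 141 CPM in WT, without overlap and with an adjusted p of 0.237.

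Tyk2, a kinase bound to the receptors of IL-12, IL-23 and type I interferon, came closest to the threshold among the 103 genes. It had 63.1, 47.4 and 62.4 CPM in XBP1-KO a, b and c and 82.7, 119 and 102 CPM in WT a, b and c, all XBP1-KO values lying below all WT values. The adjusted p was 0.053 at a log2 fold change of -0.82 (SE 0.16), and over 17 alternatives it lay between -0.95 and -0.58 with 5 calls. Of the 9 JAK, STAT and SMAD genes 4 lay higher and 5 lower.

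Of 13 tested genes of inducing signals 6 lay higher and 7 lower, and 5 had all XBP1-KO values below all WT values, as had 10.4% of all tested genes. Ikbkg, the regulatory subunit NEMO of the IkB kinase complex, had 54.3, 75.8 and 65.0 CPM in XBP1-KO and 88.0, 90.9 and 105 CPM in WT, with a log2 fold change of -0.54 (SE 0.15) and an adjusted p of 0.128. Ifngr1, a chain of the interferon gamma receptor, was the most abundant of this list, at 504 ± 7.48 CPM in XBP1-KO and 593 ± 45.2 CPM in WT, with an adjusted p of 0.453. Among 19 transcription factors known to act on cytokine genes 8 lay higher and 11 lower. Cebpb, which binds the Il12b and Il6 promoters, had 27.5, 34.3 and 26.9 CPM in XBP1-KO and 21.0, 21.7 and 17 CPM in WT, without overlap and with an adjusted p of 0.165. Irf5, an inducer of Il12b, had 195, 162 and 185 CPM in XBP1-KO and 203, 260 and 241 CPM in WT, also without overlap, with an adjusted p of 0.246.

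Of 9 tested antagonists and feedback inhibitors 6 lay higher and 3 lower, with a median log2 fold change of 0.31. Nfkbia, the inhibitor of NF-kB, had 103, 60.8 and 84.7 CPM in XBP1-KO and 37.6, 79.7 and 57.2 CPM in WT, with an adjusted p of 0.495. Zfp36, which destabilises the mRNAs of Tnf and other cytokines, was the most abundant, at 479 ± 54.8 CPM in XBP1-KO and 527 ± 60.1 CPM in WT. Among 12 tested genes of processing and release 6 lay higher and 6 lower. Ltbp1, which holds latent TGF-beta in the matrix, had 26.6, 42.2 and 39.6 CPM in XBP1-KO and 23.7, 29.3 and 18.7 CPM in WT, with an adjusted p of 0.245. Pycard, the inflammasome adaptor ASC, averaged 249 ± 25.2 CPM in XBP1-KO and 222 ± 17.2 CPM in WT.

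Among 9 genes of NK and T cells that respond to IL-12, 7 lay higher and 2 lower, with a median log2 fold change of 0.4. Stat4, the most abundant of the 9, averaged 63.5 ± 8.23 CPM in XBP1-KO and 65.5 ± 11.7 CPM in WT. The genotypes overlapped for Stat4, with a log2 fold change of -0.04 (SE 0.16) and an adjusted p of 0.927. Prf1, the pore protein perforin, had the smallest p of the list. It had 4.28, 9.88 and 4.52 CPM in XBP1-KO and 2.4, 3.19 and 1.77 CPM in WT, with a log2 fold change of 1.34 (SE 0.37) and an adjusted p of 0.132. Most markers of T and NK cells were higher in the same libraries. Of 9 tested markers 8 lay higher and 3 rose, which were Nkg7, Cd3e and the NK receptor gene Ncr1. That is a share of 3 in 9, where 0.157% of all tested genes rose. Klrb1c, the most abundant of the 9 over all libraries, overlapped between the genotypes. It averaged 59.6 ± 9.41 CPM in XBP1-KO and 54.0 ± 8.16 CPM in WT, with an adjusted p of 0.736. Cd4 was the 1 marker that lay lower, with a log2 fold change of -0.31. Nkg7 averaged 69.4 ± 20.6 CPM in XBP1-KO and 20.4 ± 4.92 CPM in WT, and over 17 alternatives it was called in 14 and Cd3e in 11. The part of the number of NK and T cells in these values was not tested. Of 21 tested genes of other myeloid cytokines 14 lay higher and 7 lower. Tnfsf13, the B cell survival factor APRIL, had 62.0, 65.3 and 59.5 CPM in XBP1-KO and 49.4, 44.1 and 46.4 CPM in WT, without overlap, with a log2 fold change of 0.42 (SE 0.13) and an adjusted p of 0.177. Il16, the most abundant of these, had 144, 135 and 163 CPM in XBP1-KO and 182, 147 and 204 CPM in WT, with an adjusted p of 0.458.

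**Figure D5:**
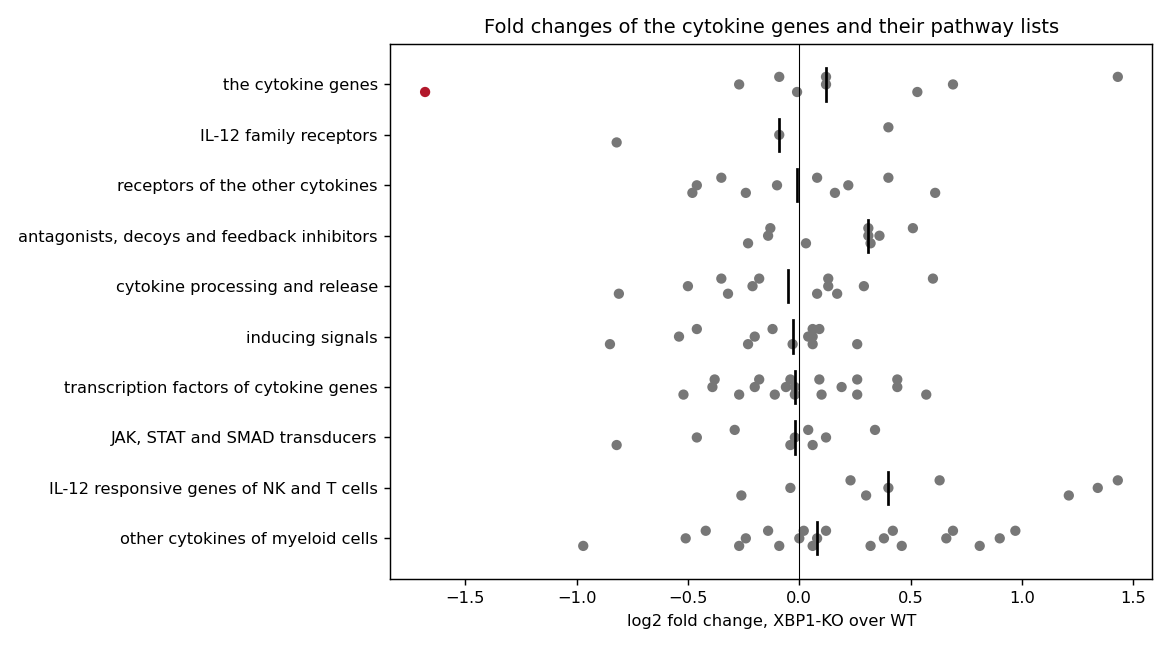
Log2 fold change, XBP1-KO over WT (horizontal axis), of the 9 tested cytokine genes and of the tested genes of 9 pathway lists (rows), with a point per gene, a black bar at the median of each row and red for an adjusted p under 0.05 in edgeR's quasi-likelihood test. Il12b at -1.68 is the 1 red point and lies further from 0 than any pathway gene.

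Markers of other cell types are given as sums over each list. Neutrophil markers summed to 352 to 530 CPM in XBP1-KO and 121 to 291 CPM in WT, all 7 lay higher and none passed. In that list Ngp, a protein of immature neutrophils, was near 0 in libraries b of both genotypes, with 0.641 CPM in XBP1-KO b and 0.354 CPM in WT b. B cell markers summed to 336 to 487 CPM in XBP1-KO and 130 to 312 CPM in WT, with all 5 tested higher and none past the threshold. Mast cell markers summed to 72.6 to 120 CPM in XBP1-KO and 36.8 to 42.5 CPM in WT, and 3 of 5 tested rose, where 0.157% of all tested genes did. Of these, Cma1 was called in 13 of 17 alternatives and Cpa3 and Tpsb2 in 6 each. Monocyte markers summed to 1892 to 2250 CPM in XBP1-KO and 2542 to 3243 CPM in WT, most of it from Ccr2, at 1722 ± 129 CPM in XBP1-KO and 2695 ± 412 CPM in WT with an adjusted p of 0.0785. Of the 6 monocyte markers 4 lay higher in XBP1-KO (Plac8, Ly6c2, Chi3l3 and Fcgr1), 2 lay lower and none passed, with a median log2 fold change of 0.47. Markers of plasmacytoid cells summed to 150 to 218 CPM in XBP1-KO and 196 to 220 CPM in WT, and those of tumour and mesothelial cells to 106 to 188 CPM in XBP1-KO and 126 to 169 CPM in WT. No list had a marker at 0 in all libraries. The part of these cells in the levels of the 10 cytokine genes was not tested.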

How the data were processed

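Dendritic cells sorted from ID8 tumours were sequenced in 6 libraries, 3 of XBP1-KO and 3 of WT mice. The authors deposited whole-number counts per gene symbol, and a second table of CPM for 13946 genes, which equalled count over library total within 5.1e-11. The submitters' processing notes name mm9, edgeR and RSEM, with no version or role, and no source says how whole numbers arose. The aligner, the annotation and the strand setting were not given in the sources used here. No column was left unused. RNA was isolated and libraries prepared per the labels' protocols.

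Genes were kept by filterByExpr (15958 of 23225), scaled by TMM and tested two-sided with glmQLFit (robust) and glmQLFTest in edgeR 4.0.16 under R 4.3.3, with Benjamini-Hochberg adjustment over all genes tested and a threshold of 0.05. SE is the fold change over the square root of F. The common biological coefficient of variation was 0.25. On simulated counts of this comparison 31% of 100 genes changed 2-fold and 100% of 100 genes changed 4-fold were recovered, with 6 false calls among 15940 genes tested. Every simulated gene had the same coefficient of variation of 0.25, and the changed genes were drawn from those with a mean above 1 CPM. These shares therefore do not hold for genes that vary more or lie lower, such as Il12a, Il27, Il10 and Il23a. Alternatives used DESeq2 1.42.0, limma 3.58.1, other scalings and filters, the deposited CPM and left-out libraries. Lengths and GC are of GENCODE M21 coding transcripts and promoters of RefSeq, both GRCm38, which is not the build of the counts, and symbols of 208 of 214 list entries matched. Named genes were, of each pathway list, the member of smallest p and the most abundant, and of marker lists the most abundant and called ones. Ngp, Ncr1, Cd4, Itgax, Zbtb46 and genes named for overlap or a DESeq2 call were named after their values were seen. The 10 genes and all lists were chosen with earlier results of these data known. The values of 1 gene that the naming rule selects are not reported here.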

Additional observations from a re-analysis of the deposited data

How the results depend on the processing

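Il12b lay lower in XBP1-KO under all 17 alternatives, with log2 fold changes from -1.87 to -1.43, and passed in 9. It missed the threshold with library size alone (-1.6, adjusted p 0.123, no cytokine gene called, 0), with the deposited CPM in limma on log2(value + 1) (-1.5) and log2(value + 0.1) (-1.61), and without WT b and XBP1-KO b together (-1.59); the number of the 10 genes called was 0 in each. With 1 library left out the number was 0 to 1. Fewer libraries were tested there; elsewhere the cause was not tested. All changed genes numbered 71, against 47 with limma-voom, 463 with DESeq2, 25 with library size alone, 252 with no filter, 45 without robust estimation, 25 and 13 with the deposited CPM, and 5 to 154 with 1 library left out (13, 154 and 16 without XBP1-KO a, b and c, and 38, 40 and 5 without WT a, b and c). The 71 held 25 higher and 46 lower, against 13 and 12 with library size alone, 23 and 27 with upper quartile scaling, and 13 and 12 or 12 and 1 with the deposited CPM. Directions near 0 turned. Il6 was higher with limma-voom (0.02), upper quartile (0.04), library size alone (0.04), the deposited CPM (0.06 and 0.09) and without both b libraries (0.38), and ran from -0.23 to 0.23 with 1 left out. Ebi3 was higher with the deposited CPM (0.01 in both) and ran from -0.3 to 0.07. Without both b libraries Il1b was -0.14 and Il10 0.78, with ranges of -0.33 to 0.44 and -0.72 to 1.07. Stat4 was 0.01, 0.02, 0.04, 0.04 and 0.13 under upper quartile, library size alone, the deposited CPM and without both b libraries, with a range of -0.16 to 0.07. None of these passed anywhere. Il12a, Il27 and Il10 gave no value where a filter at a CPM of 1, the deposited table or DESeq2 left them out. No paired analysis was possible because the columns carry no replicate number. Il23a, with 0 to 7 counts in a library, was too low to test.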
